A study of Mus musculus with 3 samples.

Results

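The steroid and nuclear receptor genes Esr1, Gper1, Pgr, Nr3c1, Nr3c2, Vdr, Rxra and Esrra were chosen by their symbols, as 8 of the 31058 gene rows of the deposited matrices. They were read in 3 libraries of single cells from mouse glomeruli, the filtering units of the kidney, from 1 male, 1 female and 1 female RPC-ERαKO mouse. Every mouse was healthy, of C57Bl/6 background and of genotype Pax2.rtTA;TetO.Cre;R26.Confetti, in which doxycycline switches on Cre in cells that use the Pax2 promoter and Cre lights a fluorescent reporter. Doxycycline was given at 20 days of age and cells were taken at 90 days. The third mouse carried the further element ERalphaKO, written below as ERaKO. The labels do not say which part of Esr1 it removes, and do not spell out RPC. With 1 library per group no comparison has a replicate check, so no test was run and every interval is an exact 95% interval of counting error only.

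Steroid and nuclear receptors are transcription factors that bind small lipophilic hormones and then act on DNA. Esr1 encodes oestrogen receptor alpha, Pgr the progesterone receptor, Nr3c1 the glucocorticoid receptor, Nr3c2 the mineralocorticoid receptor and Vdr the vitamin D receptor. Rxra is the retinoid X receptor that pairs with Vdr and many others, Esrra is an orphan receptor that drives mitochondrial genes, and Gper1 is a membrane receptor for oestrogen that couples to G proteins. In kidney, the mineralocorticoid receptor is known for sodium handling in the collecting duct, and the vitamin D receptor for mineral handling in the tubule.

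The genes lie on different chromosomes of mm10. Esr1 (ENSMUSG00000019768) spans chr10:4611593-5005614, Pgr (ENSMUSG00000031870) chr9:8899833-8968611, Gper1 (ENSMUSG00000053647) chr5:139423151-139427800 and Nr3c2 (ENSMUSG00000031618) chr8:76899442-77245012. Vdr (ENSMUSG00000022479) spans chr15:97854425-97910630, Rxra (ENSMUSG00000015846) chr2:27676440-27762957 and Esrra (ENSMUSG00000024955) chr19:6910977-6921813. For 7 of the 8 genes, RefSeq start sites of build GRCm38.p6 gave 9 windows of 250 bases just before a listed start. Those of Esr1 (its second listed start), Pgr and Rxra (its second listed start) are shown because these genes were highest in different classes. That reason does not decide which start is shown. Capitals mark TATAAA or AGGTCA, the core hexamer of oestrogen, vitamin D and orphan receptor elements, on either strand. The first Esr1 window, not shown, lies in annotated exons over all 250 bases. The first Rxra window, not shown, holds 0 matches of AGGTCA and 0 of TATAAA.
Esr1, chr10:4709908-4710157, plus strand: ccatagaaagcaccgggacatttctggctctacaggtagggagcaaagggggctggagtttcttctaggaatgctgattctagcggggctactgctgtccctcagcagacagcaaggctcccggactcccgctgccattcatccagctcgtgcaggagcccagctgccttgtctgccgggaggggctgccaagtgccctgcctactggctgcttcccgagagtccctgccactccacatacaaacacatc
Pgr, chr9:8899583-8899832, plus strand: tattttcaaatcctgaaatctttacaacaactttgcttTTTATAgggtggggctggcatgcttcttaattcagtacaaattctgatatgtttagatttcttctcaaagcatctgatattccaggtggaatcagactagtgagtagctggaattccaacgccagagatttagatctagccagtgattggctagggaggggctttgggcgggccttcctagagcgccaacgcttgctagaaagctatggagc
Rxra, chr2:27709042-27709291, plus strand: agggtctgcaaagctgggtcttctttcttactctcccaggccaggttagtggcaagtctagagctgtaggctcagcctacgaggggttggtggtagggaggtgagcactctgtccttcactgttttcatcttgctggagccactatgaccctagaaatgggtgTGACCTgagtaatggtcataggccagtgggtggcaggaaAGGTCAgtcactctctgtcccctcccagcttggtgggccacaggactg
AGGTCA or its complement stood in 1 of the 9 windows, the Rxra one shown, which holds it 2 times, and in 14.02% of 32851 windows of all genes. AGAACA, the core hexamer of steroid receptor elements other than oestrogen's, stood in 0 of the 9 windows and in 16.1% of all. TATAAA stood in 2 of the 9, those of Pgr and Gper1, and in 12.4% of all.

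The matrices held 4244, 3555 and 3986 barcodes in the male, female and ERaKO libraries, with 44585342, 44942380 and 47522141 UMIs, the molecule tags that are counted. Mitochondrial reads above the limit removed 20.97%, 17.8% and 34.0% of barcodes, and 3221, 2847 and 2471 cells were kept, at a median of 7325, 8857 and 8039 UMIs. Any pair of libraries shared 4 to 8 barcode sequences. Cells fell into 24 clusters, and 19 of these were named from marker genes, giving 12 classes; 256, 232 and 238 cells stayed unnamed. In the compared classes 9 or 10 of 10 markers reached 20 CPM in every library. Podocytes, the filtration cells, numbered 1174, 1361 and 796. The class joined here as smooth muscle and renin cells covers arteriolar muscle and the renin-making cells, and parietal cells line Bowman's capsule. Levels are UMIs of a gene per 1000000 UMIs of a class (CPM), and tubule classes are cells carried along with the glomeruli.

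Esr1 was sparse, with 84, 73 and 122 UMIs in all kept cells of the male, female and ERaKO libraries. In smooth muscle and renin cells it stood at 22.1 CPM (15.8 to 30.1) in the male, 19.9 (12.9 to 29.4) in the female and 14.4 (9.30 to 21.2) in the ERaKO library. That was the highest level of Esr1 in the male and female libraries among classes with at least 30 cells, found in 30 of 284, 22 of 159 and 25 of 247 cells. Podocytes were at the other end, with 2 of 1174, 1 of 1361 and 3 of 796 cells holding a UMI, at median depths of 7793, 9200 and 7415 UMIs. Smooth muscle and renin cells were no deeper, at 5917, 7025 and 6384 UMIs, so depth did not favour them. Endothelial cells stood between these, at 1.56, 2.30 and 1.44 CPM. Parietal cells gave 2.73 CPM in the male, no UMI in 74 female cells, which allows up to 4.05% of cells, and 1.05 CPM in the ERaKO library. A limit given for 0 cells, here and below, is 3 divided by the number of cells and not an exact interval.

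Within the smooth muscle and renin class, Esr1 was present both in the cluster led by Ren1, the gene for renin, and in the cluster led by Rergl. The Ren1-led cluster gave 15.5, 25.4 and 18.2 CPM in the male, female and ERaKO libraries, and the Rergl-led cluster 31.0, 16.1 and 6.84. The order of these clusters differed between libraries, and the intervals of the clusters overlapped in each library. Next in the male came proximal tubule at 7.32 CPM (3.899 to 12.5) and mesangial cells at 5.04 (2.03 to 10.4), whose intervals overlap. In the female, 8 of 34 intercalated cells, the acid-base cells of the collecting duct, held an Esr1 UMI, at 9.69 CPM (5.16 to 16.6), an interval that overlaps the one of smooth muscle and renin cells, and a median depth of 34032 UMIs. Once each cell was thinned to 4000 UMIs that share fell from 23.5% to 3.46%, below the 7.17% of female smooth muscle and renin cells. The 63 male intercalated cells held no Esr1 UMI, which allows up to 4.76% of cells.

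**Figure D1:**
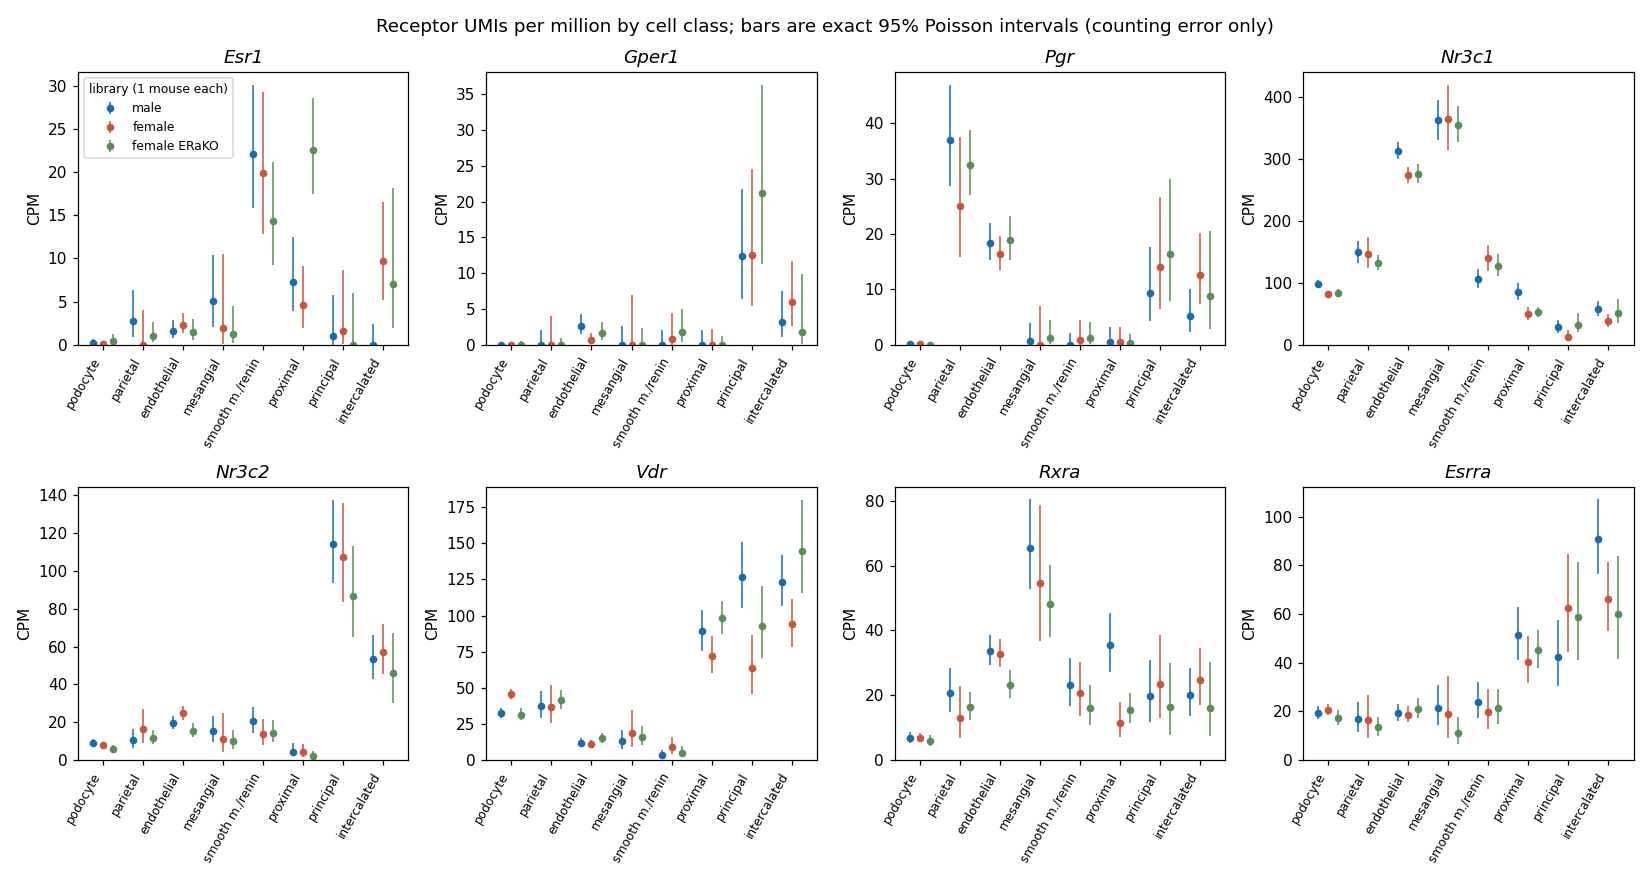
Level of each receptor (CPM, y axis) in 8 cell classes (x axis) of the male, female and ERaKO libraries, 1 mouse each; points are class sums and bars exact 95% Poisson intervals. Esr1 is highest in smooth muscle and renin cells and in ERaKO proximal tubule, Pgr in parietal cells, Nr3c1 in mesangial and endothelial cells and Nr3c2 in principal cells.

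The ERaKO library had its highest Esr1 level in proximal tubule, the reabsorbing segment next to the glomerulus. There it held 67 Esr1 UMIs in 40 of 184 cells, or 22.5 CPM (17.5 to 28.6). The female library held 8 UMIs in 7 of 91 cells, or 4.63 CPM (1.997 to 9.11), and the male 13 UMIs in 9 of 123 cells. The male and female intervals overlap, and both lie below that of the ERaKO library. The class joins 2 clusters, and most of the ERaKO UMIs came from the cluster led by Aadat, Slc7a12 and Akr1c18. In that cluster Esr1 gave 59 UMIs in 95 ERaKO cells and 7 UMIs in 42 female cells, or 27.7 against 6.85 CPM. These cells were deep, with medians of 23918 and 22041 UMIs, and 5 of the 10 proximal tubule markers were 2-fold up in them. In the other cluster, led by Miox, Akr1c21 and Pck1, the ERaKO library held 8 Esr1 UMIs in 89 cells and the female 1 in 49. Only 15 male cells fell in the Aadat-led cluster.

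**Figure D2:**
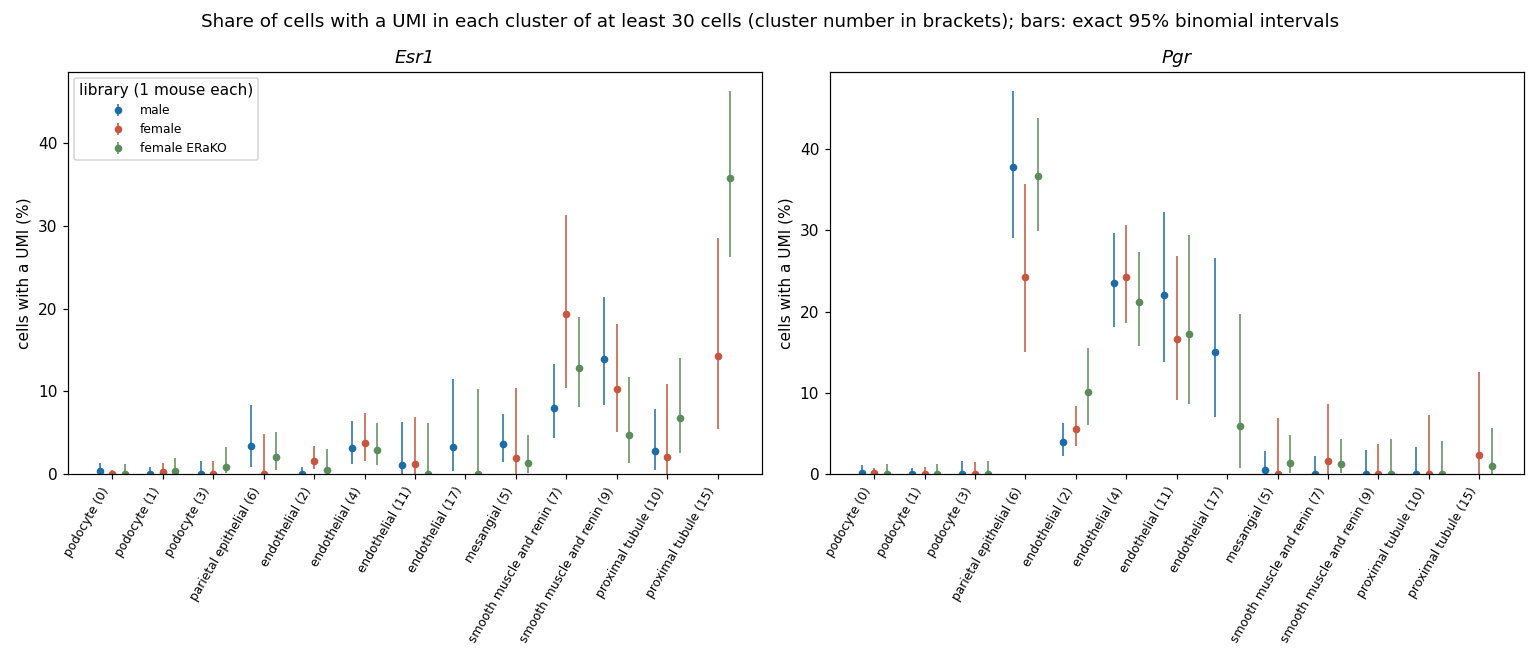
Share of cells with at least 1 UMI of Esr1 (left) and Pgr (right) in each cluster of 6 classes (x axis, cluster number in brackets), for clusters of at least 30 cells in a library; bars are exact 95% binomial intervals. Esr1 reaches 35.8% of cells in the Aadat-led proximal tubule cluster (number 15) of the ERaKO library, and Pgr 37.8% of male parietal cells.

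Cells were also divided by whether they held a UMI of a fluorescent reporter. Such UMIs were found in 219 of 1174 male podocytes and also in 61 of 772 male endothelial cells, and cells that held one were deeper, at a median of 12554 against 8808 UMIs in female podocytes. The part of free reporter RNA in this was not tested, so the division does not separate cells in which Cre acted from the rest. Of 91 ERaKO podocytes with a reporter UMI, 0 held an Esr1 UMI, which allows up to 3.30%, against 3 of 705 without. The same split gave 0 of 219 and 2 of 955 in male podocytes and 0 of 283 and 1 of 1078 in female podocytes. Loss of Esr1 in podocytes was therefore not detectable at this depth, because the other libraries were already close to 0. By the median of proximal markers in them, free proximal tubule RNA alone would give ERaKO podocytes 0.454 CPM of Esr1, against 0.415 observed. Among parietal cells, 2 of 94 ERaKO cells with a reporter UMI and 2 of 102 without held Esr1, while male cells gave 4 of 67 and 0 of 52. In ERaKO proximal tubule, 39 of the 174 cells without a reporter UMI held Esr1, against 1 of 10 with. Tags were read at the 3′ end and the deleted stretch is not given, so Esr1 UMIs neither show nor deny a deletion.

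Gper1, the other oestrogen receptor of the group, had 37, 28 and 26 UMIs in all kept cells. Principal cells, the water-channel cells of the collecting duct, had the highest level among classes of 28 or more cells, with a UMI in 11 of 52 male, 7 of 28 female and 11 of 39 ERaKO cells. Their levels were 12.4, 12.5 and 21.2 CPM, and the intervals overlap. Podocytes, parietal, mesangial, proximal tubule and immune cells held 0 Gper1 UMIs in every library; in 1361 female podocytes that allows up to 0.220% of cells. Endothelial cells were at 2.66, 0.720 and 1.65 CPM. In the endothelial cluster led by Esm1 and Igfbp3, 14 of the 17 male endothelial Gper1 UMIs lay in 6 of 60 cells, at 32.5 CPM (17.8 to 54.5).

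Pgr was present in parietal and endothelial cells and nearly absent from podocytes. Parietal cells gave 37.1 CPM (28.8 to 47.0) in the male, 25.03 (15.9 to 37.6) in the female and 32.5 (27.1 to 38.8) in the ERaKO library. In all, 45 of 119, 18 of 74 and 72 of 196 parietal cells held a Pgr UMI, against 1 of 1174, 1 of 1361 and 0 of 796 podocytes. The 3 libraries overlap in parietal cells, the ERaKO library included. Endothelial cells gave 18.4, 16.4 and 19.0 CPM, and their clusters differed. In the cluster led by Thbs2, Fbln2 and Tspan8, which also has Sox17 among its leading genes, 23.5%, 24.3% and 21.2% of cells held Pgr. The largest endothelial cluster gave 3.95%, 5.61% and 10.1%, at lower depth. In CPM the 2 clusters stood at 25.4 against 6.43 in the male, 22.1 against 8.30 in the female and 22.3 against 14.4 in the ERaKO library. Their intervals were apart in the male and female libraries and overlapped in the ERaKO library. Smooth muscle and renin cells held 0, 1 and 2 Pgr UMIs, so Pgr and Esr1 were highest in different classes.

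Nr3c1 had 4824, 4366 and 4032 UMIs and was found in every class. Mesangial cells, the contractile cells between glomerular capillaries, were highest in each library, at 361.8 CPM in the male, 364.2 in the female and 354.8 in the ERaKO library. Endothelial cells followed at 312.6, 273.4 and 275.6 CPM, and the intervals of these classes were apart in all 3 libraries. Parietal cells gave 149.3, 146.9 and 132.5 CPM and podocytes 98.8, 82.0 and 83.3, again with intervals apart. Principal cells had the lowest levels, at 28.0, 12.5 and 32.7 CPM, the female value coming from 28 cells.

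Nr3c2 was highest in principal cells, where Nr3c1 was lowest. Principal cells held it at 114.1 CPM in the male, 107.6 in the female and 86.5 in the ERaKO library, and intercalated cells at 53.5, 57.4 and 46.0. The female principal and ERaKO intercalated values come from 28 cells each, under the minimum of 30 set for a class. Among the compared classes, endothelial cells gave 19.6, 24.8 and 15.5 CPM, podocytes 9.19, 7.74 and 5.67 and proximal tubule 4.51, 4.05 and 2.36. By the median of principal cell markers in podocytes, free RNA of principal cells would give male podocytes 0.134 CPM, beside a podocyte interval of 7.47 to 11.2. Free RNA of other classes was not included, and its part was not tested. The enzyme Hsd11b2, which inactivates glucocorticoids and so keeps them off Nr3c2, gave 4269, 4459 and 5330 CPM in principal cells and 4.92, 3.08 and 1.24 CPM in podocytes. Principal cell markers, Hsd11b2 among them, had in podocytes a median of 0.118% of their principal cell level in the male and 0.0394% in the ERaKO library, and Hsd11b2 was below that share in both, so no podocyte expression is read from it.

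Vdr was highest in tubule classes. Distal convoluted tubule gave 175.4 CPM from 35 male cells, intercalated cells 123.1, 93.9 and 145.0, and proximal tubule 89.0, 72.3 and 98.2. Podocytes gave 32.8 CPM (29.4 to 36.4) in the male, 45.8 (42.6 to 49.3) in the female and 31.5 (27.6 to 35.9) in the ERaKO library. The female podocyte interval lies above both others. Parietal cells gave 37.6, 37.0 and 41.7 CPM, and smooth muscle and renin cells were lowest of the compared classes, at 3.32, 8.75 and 5.17.

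Rxra, the partner of Vdr, was not highest where Vdr was. Mesangial cells had 65.5, 54.7 and 48.1 CPM, endothelial cells 33.6, 32.7 and 23.1, and podocytes only 6.87, 6.92 and 5.80. Podocytes were thus the compared class with the lowest Rxra and held Vdr at an intermediate level. Esrra was highest in tubule, at 90.9, 66.3 and 60.1 CPM in intercalated cells and 51.2, 40.5 and 45.1 in proximal tubule. Its levels in podocytes (19.5, 20.7 and 17.4 CPM), endothelial cells (19.2, 18.6 and 21.02) and smooth muscle and renin cells (23.8, 19.9 and 21.3) did not differ beyond their counting intervals.

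Male against female, 26 of 48 pairs of receptor and class had the 50 summed counts set as a minimum, and 3 were at least 1.5-fold higher in the male and 0 lower. All 3 rest on small classes. In podocytes 5 receptors were measured and 0 passed 1.5-fold, where 2.95% of all measured genes did. Vdr came nearest, at a log2 ratio of −0.47 (−0.67 to −0.30), and Nr3c1 was at 0.27 (0.15 to 0.39). In endothelial cells 6 were measured and 0 passed (4.1% of genes), in mesangial cells 2 and 0 (12.5%), and in smooth muscle and renin cells 5 and 0 (9.4%). Esr1 was in this last group, at 0.15 (−0.60 to 0.94). In parietal cells 1 of 4 passed, Rxra at 0.63 (−0.30 to 1.74), from 38 and 12 UMIs, where 13.1% of genes passed. It was under 1.5-fold, at 0.51, with a pseudocount of 5 CPM. In proximal tubule 2 of 4 passed, Rxra at 1.54 (0.87 to 2.42) and Nr3c1 at 0.78 (0.40 to 1.19), where 28.6% of all genes passed and the male sum came mostly from the Miox-led cluster. Within that cluster Nr3c1 was at 0.13 and Rxra at 0.73 (−0.07 to 1.65), and with the receptor and list genes kept among the variable genes Nr3c1 was at −0.019 and Rxra at 0.65.

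ERaKO against female, which shares the female library with the comparison above, had 28 of 48 pairs measured, with 1 higher and 1 lower by 1.5-fold or more. The higher one was Esr1 in proximal tubule, at a log2 ratio of 2.07 (1.22 to 3.55), in a class where 14.6% of genes passed and 4 other receptors did not. This call rests on how proximal tubule cells were clustered and filtered. The 75 UMIs behind it fell under the minimum of 50 in 4 alternatives, to 15 with called doublets kept, 21 with each library clustered alone and 9 with the class limited to 1 cluster or with the receptor and list genes kept among the variable genes, and stricter cell filters left no value. Within the Aadat-led cluster it was at 1.87 (0.88 to 3.39), and Vdr was there at 1.01 (0.56 to 1.51). The lower one was Nr3c2 in endothelial cells, at −0.65 (−1.09 to −0.28), from 75 and 172 UMIs, where 6.41% of genes passed. With a pseudocount of 5 CPM it was under 1.5-fold, at −0.54. Its ratio was −0.83 (−1.37 to −0.36) in the Thbs2-led endothelial cluster and −0.27 (−1.23 to 0.59) in the largest one. Rxra in endothelial cells was at −0.48 (−0.84 to −0.17), under 1.5-fold.

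In podocytes 5 receptors were measured against the ERaKO library and 0 passed, where 5.2% of genes did. Podocyte Vdr was at −0.53 (−0.76 to −0.32). It was lower than in the female in all 3 podocyte clusters of both other libraries, at −0.27, −0.48 and −0.86 in the male and −0.40, −0.31 and −1.13 in the ERaKO library, and the intervals of 4 of these 6 ratios lie below 0. Both comparisons rest on the same female library, so this is 1 library standing apart and not 2 separate observations. After thinning each cell to 4000 UMIs, 11.9%, 16% and 12.05% of male, female and ERaKO podocytes held Vdr, against 23.8%, 36.9% and 23.1% before. In parietal cells 0 of 6 receptors passed (13.6%), in mesangial cells 0 of 2 (12.6%) and in smooth muscle and renin cells 0 of 4 (12.9%), where Esr1 was at −0.44 (−1.33 to 0.39). Pgr in parietal cells was at 0.37 (−0.27 to 1.09).

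**Figure D3:**
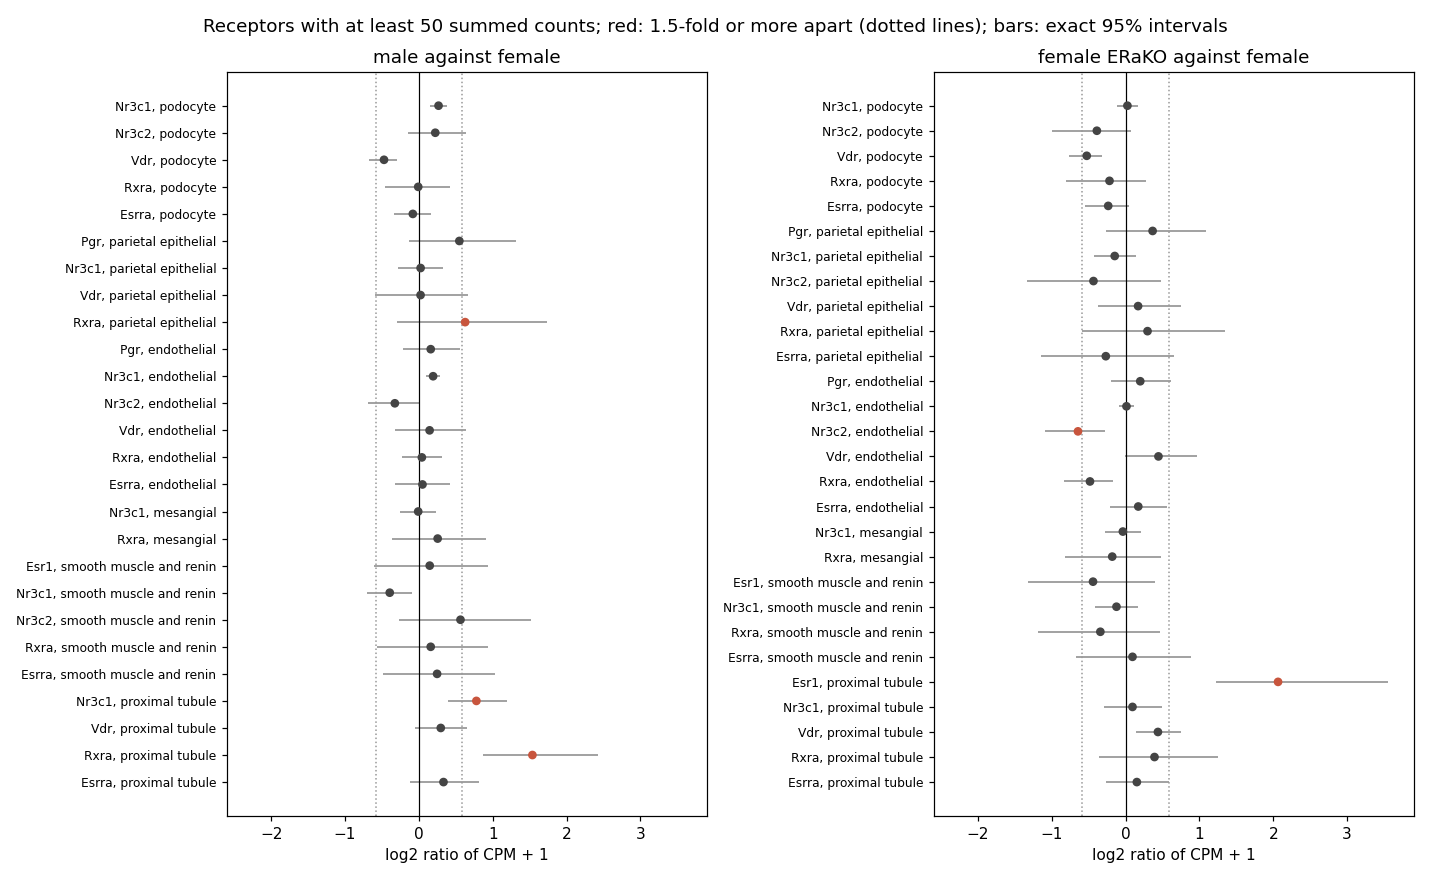
Log2 ratio of CPM + 1 (x axis) for each receptor and class with at least 50 summed counts (y axis), male against female on the left and ERaKO against female on the right. Bars are exact 95% intervals of the ratio without the added 1 CPM, and red points are 1.5-fold or more apart (dotted lines). Esr1 in ERaKO proximal tubule, at 2.07, is farthest from 0, and most other points lie between the dotted lines.

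Genes known to respond to the glucocorticoid receptor were followed as a list, chosen with earlier results of these data known. In ERaKO smooth muscle and renin cells 9 of the 12 listed genes were measured, 0 were higher and 6 lower than in the female by 1.5-fold or more, with a median log2 ratio of −0.85 against −0.07 over all genes, of which 12.9% passed. Mt1, a metallothionein, was at 152.7 CPM in the female and 48.9 in the ERaKO library there (log2 −1.62), and Cebpd, a transcription factor, at 124.9 and 47.7 (−1.37). The Ren1-led cluster of this class held 162, 62 and 163 male, female and ERaKO cells, and the Rergl-led cluster 122, 97 and 84. The part of this mix in the ratios of the class was not tested. In ERaKO proximal tubule 0 were higher and 6 lower of 8, with a median of −0.77 against 0.05 over all genes, of which 14.6% passed. In parietal cells 0 were higher and 5 lower of 11, with a median of −0.49 against 0.07, where 13.6% of genes passed. In endothelial cells 0 were higher and 4 lower of 12, with a median of −0.28 against 0.03, where 6.41% passed. Mesangial cells had 1 higher and 1 lower of 10 with a median of −0.23, and podocytes 3 higher and 2 lower of 11 with a median of 0.05, where 12.6% and 5.2% of genes passed. Fkbp5, which encodes a chaperone that damps the glucocorticoid receptor, was the lowest of the list in podocytes, at −1.60 (−2.24 to −1.30), and was at −1.999 in endothelial cells. Sgk1, a kinase of salt transport that also stands in the list of mineralocorticoid receptor targets, was the highest in podocytes, at 0.72. Nr3c1 itself was within 0.15 of 0 in all 6 classes of the ERaKO library.

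**Figure D4:**
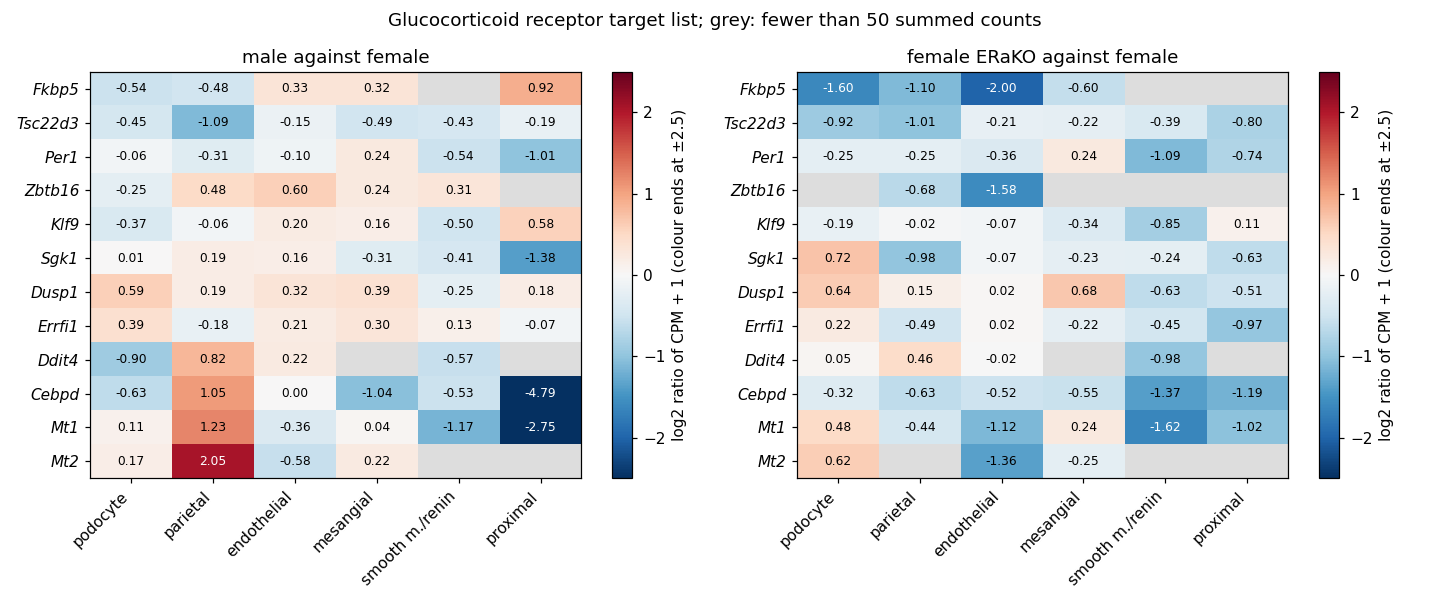
Log2 ratio of CPM + 1 for the 12 listed glucocorticoid receptor target genes (rows) in 6 cell classes (columns), male against female on the left and ERaKO against female on the right; blue is lower than in the female, red higher, and grey has fewer than 50 summed counts. Values for ERaKO smooth muscle and renin cells are all below 0, while podocytes hold both signs.

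Male against female shares the female library with these ratios. There the same list gave 0 higher and 1 lower of 10 in smooth muscle and renin cells, with a median of −0.46 against 0.0014 over all genes, of which 9.4% passed. The median of that class thus lay below 0 in both comparisons. In male podocytes 1 was higher and 2 lower of 12 (median −0.16), where 2.95% of genes passed, with Ddit4 lowest at −0.90 and Dusp1 highest at 0.59. In male proximal tubule 1 was higher and 4 lower of 9 (28.6% of genes), and in male parietal cells 4 and 1 of 12 (13.1%). Male endothelial cells had 1 higher and 0 lower of 12 (4.1%), and mesangial cells 0 and 1 of 11 (12.5%). The ERaKO library also had the largest share of barcodes over the mitochondrial limit, 34.0%, and its part in these differences was not tested. Of the list of vitamin D receptor targets only 3 of 7 were measured in podocytes, and 0 passed in either comparison. Calb1, a calcium-binding protein and also a listed marker of distal convoluted tubule, was at 0.40 in the male and −0.46 in the ERaKO library there. Atp2b1, a calcium pump, was at 0.06 and 0.11. The counts of the next lists in podocytes stand beside 2.95% of all genes past 1.5-fold in the male and 5.2% in the ERaKO library, and most are of a single gene. Of the oestrogen receptor targets, 1 of 7 was higher in podocytes in each comparison, Igfbp4 at 0.81 in the male and Ccnd1, a cell cycle gene, at 1.07 in the ERaKO library. Targets of Esrra had 1 lower of 8 in podocytes in each comparison, Pdk4 at −1.13 and −0.91. Of the mineralocorticoid receptor targets, 1 of 5 was higher in male and 2 of 5 in ERaKO podocytes, led by Slc12a3 at 1.16 and 1.03, which is also the defining marker of distal convoluted tubule; the 6 markers of that class summed to 30.5, 18.4 and 21.01 CPM in male, female and ERaKO podocytes. In the class where each receptor was highest by the mean of the 3 libraries, among classes with at least 30 cells in each, its most abundant listed target was Ccnd1 for Esr1 (340.1, 171.8 and 217.3 CPM in smooth muscle and renin cells), Dusp1 for Nr3c1 (828.7, 634.0 and 1018 in mesangial cells) and Sgk1 for Nr3c2 (1219, 1092 and 1037 in endothelial cells). Single libraries differed, with Esr1 higher in proximal tubule in the ERaKO library, and Nr3c2 at 20.5 CPM in male smooth muscle and renin cells against 19.6 in male endothelial cells. For Vdr it was Atp2b1 (80.0, 88.5 and 75.4 in proximal tubule) and for Esrra Acadm, an enzyme of fat oxidation (945.6, 2274 and 2209 in proximal tubule).

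In podocytes 0 of 19 coregulators and 0 of 12 chaperones were past 1.5-fold in both comparisons. Over all measured podocyte genes the share was 2.95% in the male and 5.2% in the ERaKO library, so these counts are near it. Ppargc1a, a coactivator of Esrra, was at 0.43 in the male and −0.27 in the ERaKO library, Ppargc1b was at 0.57 in the ERaKO library, and Ncoa2 at −0.13 in the male. Hsp90ab1, a chaperone that holds steroid receptors ready, was at 0.20 in the male, and Fkbp4 at 0.17 and Dnajb1 at −0.32 in the ERaKO library. In the hormone handling list Lrp2, the receptor that takes up vitamin D with its carrier and a marker of proximal tubule, had the highest ratio in podocytes in both comparisons, at 0.68 and 1.63. All 10 proximal tubule markers were above the female level in podocytes of the other libraries, with summed levels of 144.6 CPM in the male, 58.8 in the female and 172.6 in the ERaKO library, and none was at 0. In smooth muscle and renin cells the same sum was 177.5, 69.2 and 220.8 CPM, and the part of such RNA in the list differences was not tested. Hsd17b7 was the lowest in male podocytes, at −0.32. The lowest in ERaKO podocytes was Hsd11b2, at −0.86 from 9 and 49 UMIs, and its ERaKO level is not above the share that principal cell markers reach there.

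Other nuclear receptors differed in which was highest by class. Nr2f2, which specifies venous and stromal identity, led in parietal cells at 798.4, 739.0 and 929.1 CPM, in mesangial cells at 521.5, 551.0 and 488.1, and in smooth muscle and renin cells at 587.3, 695.2 and 487.6. Rora led in podocytes at 156.7, 163.2 and 167.6 CPM, and Nr4a1, an immediate early gene, in endothelial cells at 144.8, 138.6 and 118.7. Hnf4a, which maintains proximal tubule identity, led in that class at 232.6, 214.5 and 204.2 CPM. In ERaKO smooth muscle and renin cells 0 of the 18 measured receptors of this list were higher and 7 lower, with a median of −0.36 against −0.07 over all genes, of which 12.9% passed. In the male, against the same female library, 0 were higher and 3 lower of 18 in that class, with a median of −0.14 and 9.4% of genes passing. The mix of Ren1-led and Rergl-led clusters in that class differed between libraries, and its part was not tested. The 7 lower in the ERaKO library included Nr4a2 at −2.23 and Nr1d1, a clock repressor, at −1.87, which are named for their size after the values were seen. Esr2, the gene of oestrogen receptor beta, held 0 UMIs in podocytes, smooth muscle and renin cells and proximal tubule of every library.

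Over the 28 sums of class and library with at least 30 cells, the genes whose levels followed a receptor most closely were named, as a description, since sums from 1 library share its depth and cells. Map3k7cl (Pearson r 0.80), Itga7 (0.75) and Enpp6 (0.73) were most like Esr1, and Scin (0.95) and Spns2 (0.90) most like Pgr. Nrp1, Chst2 and Rnf144a followed Nr3c1 at 0.91, 0.90 and 0.90, and Lurap1, Cnn3 and Dlg1 followed Nr3c2 at 0.92, 0.91 and 0.91. Tmem102 (0.91), Bckdha (0.90) and Apoo (0.90) were nearest to Vdr, Sh3rf1 (0.92), Cenpb (0.89) and Lmo7 (0.84) to Rxra, and Lrpprc (0.95), Fastkd1 (0.93) and Ptges2 (0.93), genes of mitochondria, to Esrra. Gper1 had too few UMIs for such a list.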

How the data were processed

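Mouse glomerular cells were profiled with 10x 3′ libraries, and the deposited matrices hold UMI counts per gene and barcode made with Cell Ranger 6.1.2 and STAR 2.7.5a on mm10, per the submitters' processing notes. How barcodes were called as cells is not given in the sources used here; the lowest held 4284 UMIs. Barcodes with under 500 genes or over 25% mitochondrial UMIs and doublets called by Scrublet (scanpy 1.11.5) were removed. Cells were clustered (Leiden, resolution 1, 30 principal components of 2000 variable genes, receptor and list genes left out) and named from marker lists; the minimum score of 1 and the demand that most markers reach 20 CPM were set after clusters were seen. Counts were summed by class and library. Ratios add 1 CPM, and a gene is counted when 1.5-fold apart with at least 50 summed counts. The interval printed with a ratio is that of the ratio without the added 1 CPM, so the ratio can lie off its centre. The interval code was run on simulated Poisson counts with 200 genes changed: 92.5% to 97.5% of 95% intervals held the true ratio, over 12 simulated comparisons of 5900 to 10458 genes. Poisson counts are what the intervals assume, so this checks the code only and holds no spread between cells or mice. The members and lists were chosen with earlier results of these data known. Named genes were the receptors, the 2 highest other nuclear receptors per class, the extremes of each list in podocytes, the list gene highest where its receptor is highest, and the 3 genes most like each receptor. A few genes that this rule names are not reported here.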

Additional observations from a re-analysis of the deposited data

How the results depend on the processing

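No paired analysis was possible because each group is 1 library, and for the same reason no library could be left out. The count of receptor and class pairs 1.5-fold apart, male against female, was 3. It was 1 with TMM factors, 1 with called doublets kept and 1 at 2-fold, 5 with a minimum of 20 summed counts and 11 with no minimum above 1, and 2 to 4 otherwise. ERaKO against female it was 2. It was 1 with a pseudocount of 5 CPM, with stricter cell filters, with doublets kept, with the receptor and list genes kept among the variable genes, with proximal tubule limited to 1 cluster (added after seeing the data) and at 2-fold, 5 with each library clustered alone, 4 with a minimum of 20 and 9 with none. Nr3c1 in male proximal tubule turned from 0.78 to −0.019 with the receptor and list genes kept among the variable genes; the cause was not tested. Esr1 in ERaKO proximal tubule stayed between 1.52 and 2.59 under the 8 alternatives that gave a value, 4 of them from fewer UMIs than the minimum of 50. Stricter filters left proximal tubule with no value in either comparison, and clustering each library alone left male against female parietal cells with none. Thinning to 4000 UMIs moved all 59 shares of cells compared. Esr1 and Gper1, with under 130 UMIs a library, are limited by depth.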
